A study of Mus musculus with 38 samples.

Results

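The Hox genes of mouse intestinal epithelium were followed before and during chemically induced colitis, in mice with and without hexokinase 2 in that epithelium. The set was defined by name as every gene row called Hox with a cluster letter from a to d and a number, which gave 39 of the 46078 genes in the count files. Hox genes encode homeodomain transcription factors that give cells their position along the body. They lie in 4 clusters, and within each cluster the genes at the 3′ end (low numbers) are used toward the head and those at the 5′ end (high numbers) toward the tail, so that genes of the same number in different clusters are paralogues. In the gut the genes of paralogue group 13 mark the hindgut, from which the distal colon and rectum form, and regional Hox expression persists in adult intestinal epithelium.

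The data are RNA sequencing counts of 38 libraries, each from isolated intestinal epithelial cells of 1 C57BL/6 mouse; the series text speaks of colon tissue, and the labels give no position along the gut. All mice carried a floxed Hk2 allele. KO mice (Hk2ΔIEC) also carried Cre recombinase under the Villin promoter, which is active throughout the small and large intestinal epithelium, and WT mice were Hk2fl/fl littermates. Both genotypes were housed together, and male mice aged 10 to 12 weeks received 1.5% dextran sodium sulfate (DSS), which injures the colon epithelium, in their drinking water. Untreated mice (day 0) numbered 4 WT and 5 KO, mice after 3 days of DSS 7 WT and 8 KO, and mice after 7 days of DSS 7 WT and 7 KO. The labels give basal mice of 9 to 11 or 86 to 92 weeks, and do not say which age or sex the day 0 mice had. The p-values below measure the spread between mice.

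Total counts were 10.5 to 60.6 M counts per library (M stands for mega), with a median of 43.2 M, and a count of 3 corresponded to 0.0495 to 0.286 CPM (counts per M counts). Day 0 libraries carry another prefix in their deposited names than those of days 3 and 7. The labels do not say what the prefix stands for. In each comparison with day 0 the effects of DSS and of anything that goes with the prefix cannot be told apart. The same holds for age and sex, which are not given for the day 0 mice. They may also differ between the WT and KO mice of day 0. Hk2 itself was at 247 to 439 CPM in WT and 31.2 to 111 CPM in KO mice on day 0, and at 231 to 598 CPM in WT and 56.6 to 260 CPM in KO mice on day 7. On day 3 it was at 99.3 to 224 CPM in WT mice, 70.9 to 131 CPM in 7 KO libraries and 440 CPM in the library labelled d3_KO_345. All 7 epithelial markers and at least 7 of 8 colon markers had a group mean of 1 CPM or more in every group. Summed levels of 8 immune markers were 15.1 to 40.2 CPM in WT day 3, 28.7 to 122 CPM in KO day 3, 124 to 902 CPM in WT day 7 and 95.3 to 1428 CPM in KO day 7. Summed levels of 11 stromal markers were 14.98 to 132 CPM in WT day 3, 20.4 to 160 CPM in KO day 3, 34.7 to 194 CPM in WT day 7 and 49.2 to 321 CPM in KO day 7. In such bulk samples fewer cells of a type and less RNA per cell cannot be told apart.

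Some libraries stood apart in their Hox genes. The posterior share of Hox expression, defined below, was lowest within its group in d3_KO_387 (55.6%) and d3_WT_381 (57.7%), the latter of which also had the highest sum of small intestine markers of all libraries (1445 CPM, against 389 to 1112 CPM in the other libraries). Fabp2 alone made up 1159 CPM of that sum, and Anpep (1.61 CPM) and Mttp (2.05 CPM) were lowest of WT day 3 in the same library. The WT day 3 library d3_WT_348 had 1.31 CPM of Hoxd13 and none of Hoxd10 and Hoxd12, beside 134 CPM of Hoxb13. The KO day 0 library d0_KO_32 had the lowest Hoxb13 (42.9 CPM) and the highest Hoxa13 (61.7 CPM) of its group. Another KO day 0 library, d0_KO_60, had the highest levels of its group of the small intestine markers Anpep (96.3 CPM), Apoa1 (70.3 CPM), Fabp6 (40.4 CPM), Mttp (24.6 CPM) and Apoa4 (10.97 CPM). Some results below are also given without one of these libraries, as stated there.

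Of the 39 Hox genes, 24 had a mean of at least 1 CPM in some group and 17 in all 6 groups. The Hoxa cluster (chromosome 6, 52155590 to 52260880 on GRCm38, 11 genes) supplied 10 of the 24, and the Hoxb cluster (chromosome 11, 96194316 to 96368256, 10 genes) supplied 8. The Hoxd cluster (chromosome 2, 74668310 to 74765142, 9 genes) supplied 6, of which 1, Hoxd4, reached that level in every group. No gene of the Hoxc cluster (chromosome 15, 102921103 to 103036852, 9 genes) did: its highest value in any library was 5 counts (0.186 CPM), and Hoxc12 and Hoxc13 had no count in any library. Together with Hoxb1, 7 Hoxc genes made up the 8 genes that never exceeded 3 counts. Exons of several Hox genes overlap those of other genes on the same or the opposite strand. Counting ignored strand, and reads from shared bases cannot be assigned. For Hoxd10 and Hoxd11 the overlapping gene lies on the same strand, so strand would not separate them. The shared exon bases were 62.8% in Hoxd3, 52.9% in Hoxb3, 52.3% in Hoxd4, 35.0% in Hoxa11, 27.3% in Hoxb2 and 27.1% in Hoxa3. They were 16.0% in Hoxa4, 15.9% in Hoxa2, 15.6% in Hoxa7, 10.8% in Hoxd11, 8.01% in Hoxa9 and 5.73% in Hoxd10, among others. No exon base of Hoxa13, Hoxb13, Hoxd13, Hoxd12, Hoxa5, Hoxa6, Hoxa10 or Hoxb6 to Hoxb9 is shared in this way.

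Levels of different genes were compared as RPKM, that is CPM per kilobase of the gene length in the files. Averaged over the 38 libraries, Hoxb13 was highest with 53.5 RPKM, followed by Hoxb9 with 24.1, Hoxb6 with 15.9, Hoxa13 with 13.01, Hoxa10 with 8.23, Hoxa7 with 8.16, Hoxb7 with 7.77 and Hoxd13 with 5.71 RPKM. The order changed with the day. In WT mice Hoxb13 averaged 83.5 RPKM on day 0, 86.7 on day 3 and 24.4 on day 7, whereas Hoxb9 averaged 11.6, 26.3 and 28.04 RPKM. Hoxb13 was thus the leading Hox gene on days 0 and 3, and on day 7 its mean lay below that of Hoxb9, in WT mice by less than its SD over mice. In KO mice Hoxb13 averaged 47.0, 74.4 and 12.8 RPKM on the same days, and Hoxb9 12.6, 27.8 and 28.9 RPKM.

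**Figure D1:**
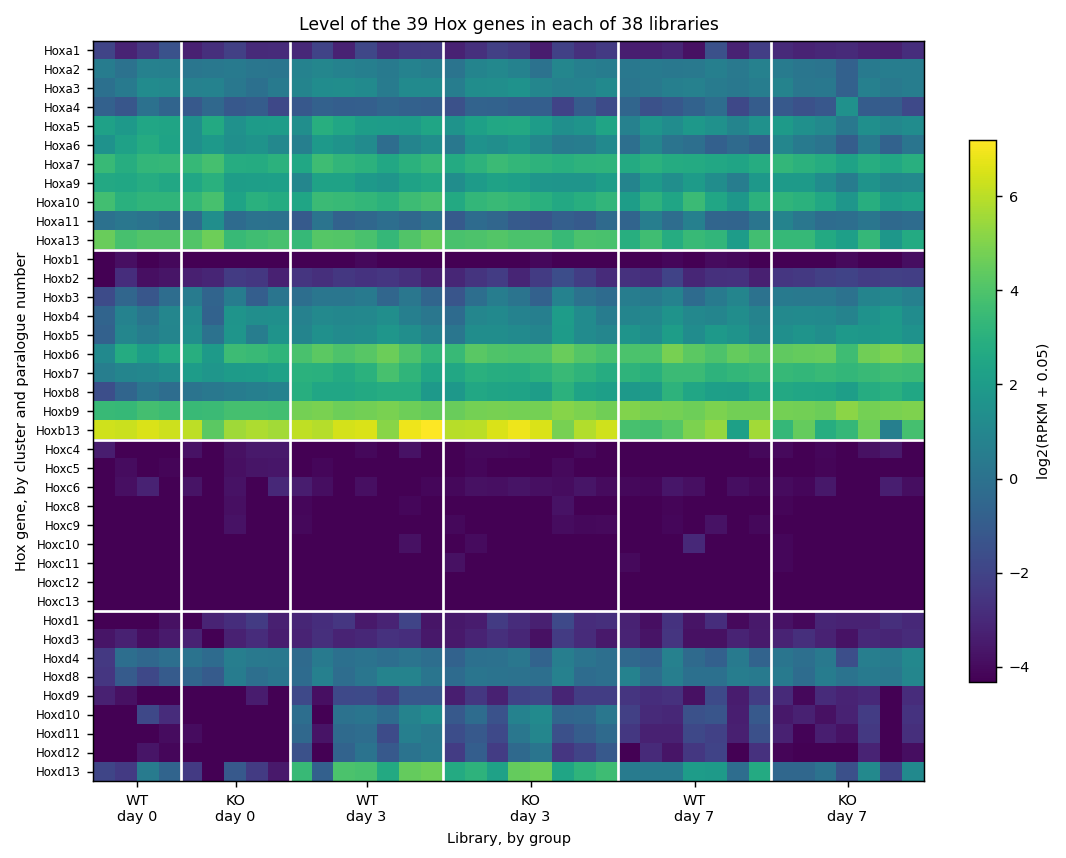
Level of each Hox gene in each of the 38 libraries, shown as log2 of RPKM plus a small constant by the colour bar, with genes in rows by cluster and paralogue number and libraries in columns by group. The Hoxc rows, with at most 5 counts in any library, stay dark in all groups, and the rows of Hoxd9 to Hoxd13 are brightest in the day 3 columns.

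The comparison of day 7 with day 3 asks how Hox expression differed between early and later DSS exposure, within libraries that share a name prefix. In WT mice 9 of the 27 Hox genes tested were called (adjusted p under 0.05, edgeR quasi-likelihood test), all 9 lower on day 7. Of all genes tested there, 19.3% were called, 8.7% lower and 10.6% higher. In KO mice 11 of 26 tested Hox genes were called, 9 lower and 2 higher, against 19.3% of all genes (8.83% lower, 10.5% higher). The median log2 fold change of the tested Hox genes was -0.37 in WT and -0.14 in KO mice, beside 0.01 and -0.01 over all genes tested. The 9 genes called in WT mice were all among the 11 called in KO mice (100% and 81.8% of the lists).

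Most of the called genes lay at the 5′ ends of the clusters. Of the tested genes of paralogue groups 9 to 13, 6 of 11 were called lower in WT and 6 of 10 in KO mice, with 1 called higher in KO mice, and their median log2 fold changes were -1.08 and -1.78. Of groups 5 to 8, 2 of 8 were called lower in each genotype and 1 higher in KO mice, with medians of -0.10 and 0.26. Of groups 1 to 4, 1 of 8 was called lower in each genotype, with medians of -0.10 and 0.30.

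Hoxb13 (ENSMUSG00000049604, chromosome 11, 96194316 to 96197447, plus strand), the most 5′ Hoxb gene, ranged from 76.8 to 322 CPM with a median of 193 in WT day 3. In WT day 7 it ranged from 10.2 to 106 CPM with a median of 39.8, so the 2 ranges overlapped at their edges. In KO mice it ranged from 63.2 to 262 CPM (median 159) on day 3 and from 3.396 to 54.7 CPM (median 22.4) on day 7. The KO ranges did not overlap. Its log2 fold change was -1.81 (SE 0.43, adjusted p = 0.00794 in edgeR) in WT and -2.54 (SE 0.44, adjusted p = 0.000679 in edgeR) in KO mice.

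Hoxa13 (ENSMUSG00000038203, chromosome 6, 52257694 to 52260880, minus strand), which with Hoxd13 is required for the embryonic hindgut and the digits, was at 24.7 to 55.5 CPM (median 41.7) in WT day 3 and at 9.92 to 32.2 CPM (median 23.5) in WT day 7. KO mice had 26.7 to 42.5 CPM (median 37.5) on day 3 and 8.25 to 25.99 CPM (median 16.2) on day 7. The ranges overlapped in WT mice and were separate in KO mice. Its log2 fold change was -0.76 (SE 0.24, adjusted p = 0.0347 in edgeR) in WT and -1.01 (SE 0.21, adjusted p = 0.00272 in edgeR) in KO mice. The WT call was lost when any 1 of 8 libraries was left out (d3_WT_348, d3_WT_352, d3_WT_353, d3_WT_486, d3_WT_487, d7_WT_356, d7_WT_370 and d7_WT_393; adjusted p = 0.0511 to 0.0762).

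**Figure D2:**
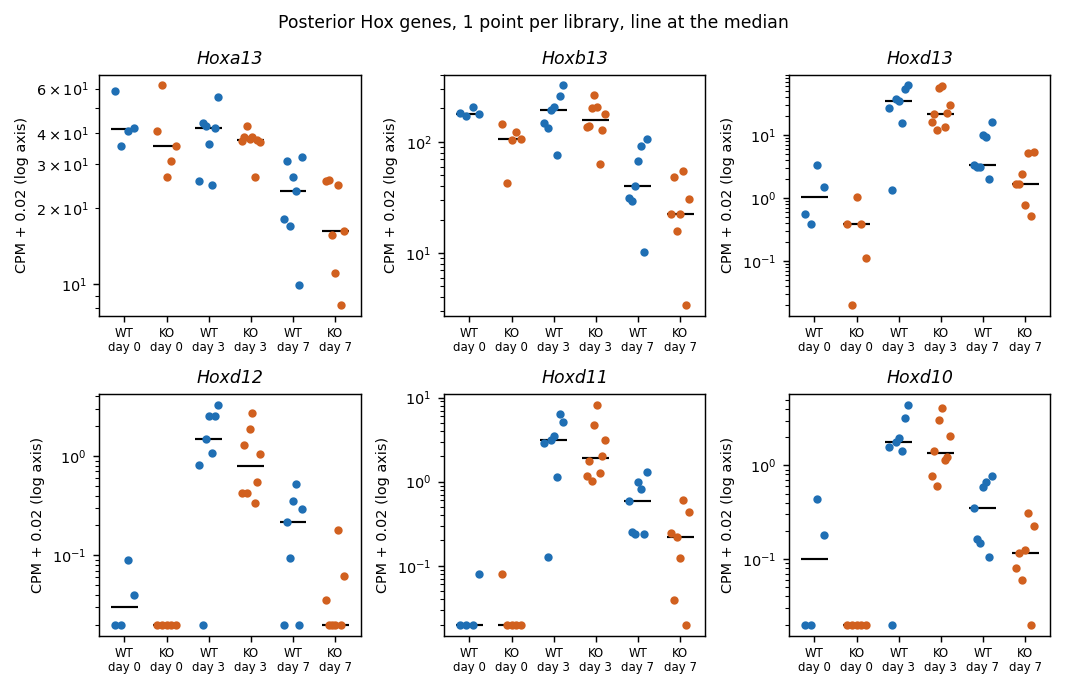
CPM plus a small constant of 6 posterior genes per library in the 6 groups, on log axes, with 1 point for each mouse and a line at the group median. Hoxb13 in KO mice lies at 63.2 to 262 CPM on day 3 and at 3.396 to 54.7 CPM on day 7, and Hoxd13 lies at 3.36 CPM or less in all day 0 libraries.

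Hoxd13 (ENSMUSG00000001819, chromosome 2, 74668310 to 74671599, plus strand), the most 5′ Hoxd gene and known from limb and anorectal development, was at 1.31 to 61.9 CPM (median 35.4) in WT day 3 and at 2.01 to 16.2 CPM (median 3.33) in WT day 7. In KO mice it was at 12.0 to 61.7 CPM (median 21.9) on day 3 and at 0.501 to 5.40 CPM (median 1.68) on day 7. Every KO day 3 library was above every KO day 7 library, whereas d3_WT_348, at 1.31 CPM, lay below all WT day 7 libraries. The log2 fold change was -2.30 (SE 0.62, adjusted p = 0.0170 in edgeR) in WT and -3.54 (SE 0.54, adjusted p = 0.000255 in edgeR) in KO mice.

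The 3 next genes of the cluster, which pattern the limb and the posterior trunk, moved the same way at much lower levels. Hoxd12 was at 0 to 3.23 CPM (median 1.46) in WT day 3 and 0 to 0.497 CPM (median 0.197) in WT day 7, and at 0.315 to 2.68 CPM and 0 to 0.158 CPM in KO mice. Hoxd11 was at 0.106 to 6.33 CPM (median 3.14) and 0.216 to 1.27 CPM (median 0.566) in WT mice, and at 1.01 to 8.08 CPM and 0 to 0.579 CPM in KO mice. Hoxd10 was at 0 to 4.35 CPM (median 1.77) and 0.0864 to 0.751 CPM (median 0.327) in WT mice, and at 0.587 to 4.06 CPM and 0 to 0.289 CPM in KO mice. For each of the 3 genes the KO ranges were separate, and the WT ranges overlapped through d3_WT_348, the lowest of the day 3 libraries, and for Hoxd11 also through d3_WT_381 (1.11 CPM). In WT mice the log2 fold changes were -3.15 (SE 0.83) for Hoxd12, -2.39 (SE 0.63) for Hoxd11 and -2.45 (SE 0.70) for Hoxd10, with edgeR adjusted p from 0.0143 to 0.0224. In KO mice they were -5.14 (SE 0.77), -3.71 (SE 0.67) and -3.98 (SE 0.57), with edgeR adjusted p from 0.000164 to 0.000955. Hoxd10 lost its WT call without d3_WT_487 (adjusted p = 0.0519), and Hoxd12 in KO mice was at -6.38 without d7_KO_421.

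The 250 bases before the RefSeq starts of these 4 neighbouring genes are shown because all 4 were called lower on day 7 than on day 3 and higher on day 3 than on day 0 in both genotypes. They are printed 5′ to 3′ (RefSeq, GRCm38.p6, plus strand). Capitals mark ATAAA and CCAAT on either strand. The windows are chr2:74667975-74668224, chr2:74674763-74675012, chr2:74679308-74679557 (the first of the RefSeq starts of Hoxd11) and chr2:74691641-74691890 in that order.
Hoxd13: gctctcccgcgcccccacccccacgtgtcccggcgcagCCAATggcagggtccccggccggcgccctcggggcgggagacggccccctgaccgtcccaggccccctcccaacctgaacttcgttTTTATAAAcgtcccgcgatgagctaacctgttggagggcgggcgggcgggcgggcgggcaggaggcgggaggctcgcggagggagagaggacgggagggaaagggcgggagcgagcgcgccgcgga
Hoxd12: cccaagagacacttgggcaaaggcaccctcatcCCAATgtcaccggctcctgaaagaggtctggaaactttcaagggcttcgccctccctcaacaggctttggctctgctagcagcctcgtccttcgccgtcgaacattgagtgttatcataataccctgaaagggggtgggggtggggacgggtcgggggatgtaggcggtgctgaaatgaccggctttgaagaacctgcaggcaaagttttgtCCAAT
Hoxd11: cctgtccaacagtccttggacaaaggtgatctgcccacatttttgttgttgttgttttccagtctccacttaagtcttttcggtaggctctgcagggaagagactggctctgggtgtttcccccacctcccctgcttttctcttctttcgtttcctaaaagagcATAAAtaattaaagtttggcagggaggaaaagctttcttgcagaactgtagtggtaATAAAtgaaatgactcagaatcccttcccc
Hoxd10: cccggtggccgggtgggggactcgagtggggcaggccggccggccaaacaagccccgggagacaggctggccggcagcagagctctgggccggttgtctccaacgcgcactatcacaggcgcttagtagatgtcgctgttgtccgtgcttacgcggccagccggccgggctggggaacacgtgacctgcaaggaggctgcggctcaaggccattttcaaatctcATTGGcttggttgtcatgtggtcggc
The promoters differed in composition, from a GC content of 74.4% with 31 CpG in Hoxd13 to 44.8% with 2 CpG in Hoxd11, with 55.6% and 10 in Hoxd12 and 65.6% and 20 in Hoxd10. ATAAA was found at bases -126 and -123 of Hoxd13, which overlap, counted from the RefSeq start, and at -86 and -30 of Hoxd11, and in neither of the other two windows. CCAAT was found in Hoxd13, Hoxd12 and Hoxd10 and not in the Hoxd11 window shown. The window before the other RefSeq start of Hoxd11 (chr2:74682073-74682322) had a GC content of 60.4% with 20 CpG. It held neither ATAAA nor CCAAT. Among all RefSeq windows, 37.3% of 32851 of this length held ATAAA and 33.9% held CCAAT; among the 24 windows of the 22 Hox genes matched there, 9 (37.5%) and 14 (58.3%) did.

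Of the central and anterior genes, Hoxa6, Hoxa5 and Hoxa3 were lower on day 7 in both genotypes. Hoxa6, a trunk gene, was at 0.721 to 3.17 CPM (median 2.02) in WT day 3 and 0.455 to 1.61 CPM (median 0.750) in WT day 7, with overlapping ranges. In KO mice it was at 1.03 to 2.74 CPM (median 1.80) and 0.415 to 1.64 CPM (median 0.925), also overlapping. Its log2 fold change was -1.25 (SE 0.33, adjusted p = 0.0136 in edgeR) in WT and -0.93 (SE 0.29, adjusted p = 0.0346 in edgeR) in KO mice. The KO call was lost without any 1 of 7 libraries (d3_KO_349, d3_KO_350, d3_KO_351, d3_KO_392, d7_KO_368, d7_KO_422 and d7_KO_423; adjusted p = 0.0544 to 0.0733). Hoxa5, best known from lung and foregut development, was at 4.67 to 14.1 CPM and 3.07 to 6.61 CPM in WT mice, and at 4.86 to 11.3 CPM and 2.23 to 7.23 CPM in KO mice, with log2 fold changes of -0.87 (SE 0.23, adjusted p = 0.0143 in edgeR) and -0.85 (SE 0.24, adjusted p = 0.0192 in edgeR). Hoxa3, a gene of the pharyngeal pouches from which thymus and parathyroid form, was at 8.10 to 14.9 CPM and 6.58 to 9.85 CPM in WT mice, and at 8.68 to 17.3 CPM and 3.27 to 10.3 CPM in KO mice. Its log2 fold changes were -0.64 (SE 0.14, adjusted p = 0.00489 in edgeR) and -0.75 (SE 0.21, adjusted p = 0.0175 in edgeR). The ranges of the days overlapped for both genes in both genotypes.

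The remaining genes tested on day 7 against day 3 did not pass: 18 in WT mice had log2 fold changes between -1.08 and 0.47, and 15 in KO mice between -0.49 and 0.76.

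Hoxb7 and Hoxa11 were called higher on day 7 in KO mice. Hoxb7 was at 9.29 to 17.4 CPM (median 11.6) in KO day 3 and 15.1 to 18.6 CPM (median 16.5) in KO day 7, with overlapping ranges and a log2 fold change of 0.45 (SE 0.11, adjusted p = 0.00839 in edgeR). Hoxa11 was at 0.784 to 1.72 CPM (median 1.07) and 1.64 to 3.93 CPM (median 1.95), ranges that overlapped slightly, with a log2 fold change of 0.93 (SE 0.22, adjusted p = 0.00694 in edgeR). Counting ignored strand, 35.0% of the Hoxa11 exon bases overlap the antisense gene Hoxa11os, and reads of the 2 genes cannot be told apart there. Neither gene's change differed between the genotypes by a test: no interaction of genotype with day 7 against day 3 was called for any of the 28 Hox genes tested (0% of all genes called), and at an unadjusted p under 0.05 there were 0 Hox genes and 440 genes in all. The interaction was -0.71 (SE 0.61, 95% interval -1.91 to 0.49) for Hoxb13, -1.22 (SE 0.81, -2.81 to 0.37) for Hoxd13 and -0.24 (SE 0.33, -0.87 to 0.40) for Hoxa13 on the log2 scale. The smallest p were those of Hoxd10 (-1.51, SE 0.92), Hoxd12 (-1.97, SE 1.23) and Hoxa11 (0.56, SE 0.35).

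**Figure D3:**
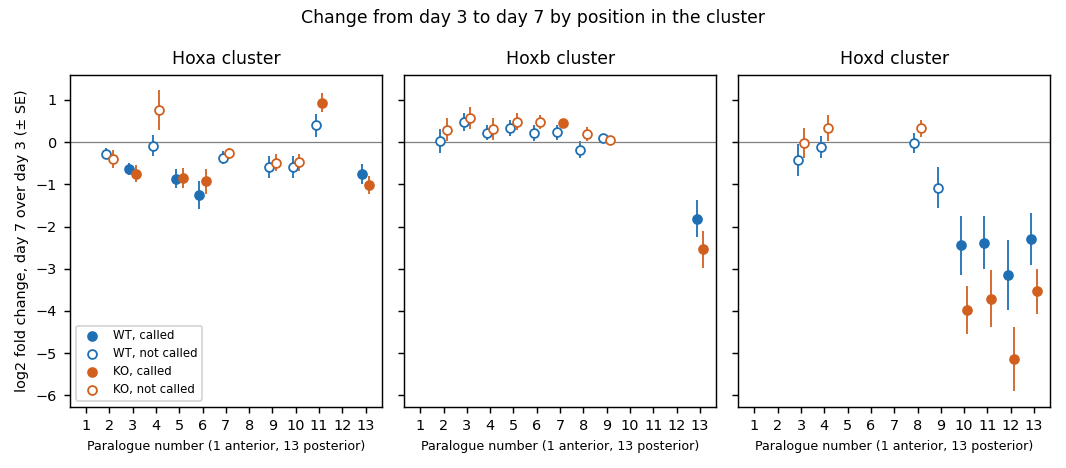
Log2 fold change of each tested Hox gene on day 7 against day 3, placed by paralogue number from 1 to 13 within the Hoxa, Hoxb and Hoxd clusters, for WT and KO mice, with bars of 1 SE and called genes as filled points. Genes of groups 9 to 13 have medians of -1.08 in WT and -1.78 in KO mice, and those of groups 5 to 8 have medians of -0.10 and 0.26.

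The levels of immune markers moved with these results. All WT day 7 sums lay above all WT day 3 sums, and the KO sums overlapped between the days at their edges. With the mean log2 level of the 8 immune markers as a covariate, a choice made after the data were seen, no Hox gene was called in either genotype, and 0 genes in WT and 2 genes in KO were called in all. Hoxb13 was then at 1.21 (SE 1.16) in WT and -1.38 (SE 0.83) in KO mice on the log2 scale. With the stromal score as a covariate 9 and 11 Hox genes were called, as without it. With the small intestine score no Hox gene was called in WT mice (638 genes in all; Hoxb13 -1.79, SE 0.65, adjusted p = 0.145 in edgeR) and 11 in KO mice. The numbers of all genes called with the stromal score, and with the small intestine score in KO mice, are not given. Without d3_KO_345 and with no covariate, the KO counts of called Hox genes were unchanged (2 higher, 9 lower).

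The posterior share sums up the balance of the set. It is the summed RPKM of the genes of paralogue groups 9 to 13 as a percent of the summed RPKM of all Hox genes. It was 78.9% ± 3.41 (SD, n = 4) in WT day 0, 71.8% ± 8.60 (SD, n = 7) in WT day 3 and 56.3% ± 9.18 (SD, n = 7) in WT day 7. In KO mice it was 68.9% ± 3.16 (SD, n = 5), 71.2% ± 7.23 (SD, n = 8) and 48.6% ± 6.92 (SD, n = 7). Without d3_WT_381 the mean of WT day 3 was 74.1%, and without d3_KO_387 that of KO day 3 was 73.5%. KO day 7 libraries (35.8 to 56.0%) overlapped KO day 3 libraries (55.6 to 77.6%) only through d3_KO_387, and WT day 7 libraries (42.2 to 66.0%) overlapped WT day 3 libraries (57.7 to 83.8%) more widely. Group 13 alone made up 51.0% of the summed Hox RPKM in WT day 3, 26.1% in WT day 7, 49.5% in KO day 3 and 16.7% in KO day 7. Hoxb13 alone made up 38.1, 17.3, 36.3 and 10.0% in the same order. The summed RPKM of all Hox genes averaged 219 in WT day 3, 132 in WT day 7, 200 in KO day 3 and 123 in KO day 7. Since the share is a score over the chosen genes, no test is given for it.

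**Figure D4:**
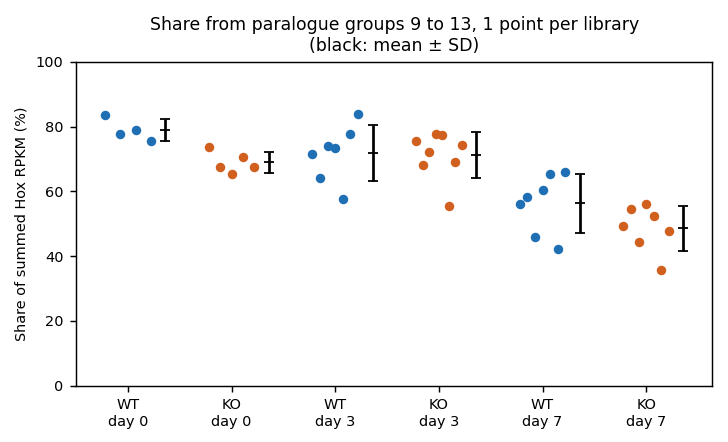
Posterior share of Hox expression, in percent of the summed RPKM of all Hox genes, for each library in the 6 groups, with the mean and SD. WT libraries average 78.9, 71.8 and 56.3% on days 0, 3 and 7, and KO libraries average 68.9, 71.2 and 48.6%.

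Comparisons with day 0 ask how the untreated epithelium differed. They are confounded with the name prefix of the libraries throughout, and possibly with age and sex. On day 3 against day 0, 13 of 28 tested Hox genes were called in WT mice (11 higher, 2 lower), beside 46% of all genes (20.4% higher, 25.6% lower). In KO mice 12 of 28 were called (10 higher, 2 lower), beside 46.3% of all genes (22.6% higher, 23.7% lower). The share called among Hox genes was therefore near that among all genes, and the median log2 fold change of the tested Hox genes was 0.54 in WT and 0.17 in KO mice. Without d3_KO_345, 11 were called in KO mice (9 higher, 2 lower).

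The genes called higher on day 3 were Hoxd9 to Hoxd13 and Hoxb6 to Hoxb9 in both genotypes, with Hoxb2 and Hoxd8 in WT and Hoxa3 in KO mice. Hoxd13 was at 0.365, 0.529, 1.49 and 3.36 CPM in the WT day 0 libraries and at 0, 0.0929, 0.364, 0.366 and 1.03 CPM in the KO day 0 libraries. All but d3_WT_348 of the day 3 libraries lay above them, with 12.0 CPM or more. The log2 fold change was 4.51 (SE 0.88, adjusted p = 0.00092 in edgeR) in WT and 5.92 (SE 0.66, adjusted p = 3.08e-06 in edgeR) in KO mice; it was 5.12 without d0_WT_43 and 6.84 without d0_KO_53. Hoxd11 had 3 counts over the 4 WT day 0 libraries and 1 over the 5 KO day 0 libraries, so its folds are ratios with counting intervals of 118 (95% interval 40.2 to 571) and 191 (34.2 to 7561). Hoxd12 had 2 counts over WT day 0, a ratio of 89.7 (24.7 to 743), and none over KO day 0, so that KO day 3 was at least 4.27-fold higher than the level of 3 counts per library. Hoxd10 had none over KO day 0 either, with at least a 7.18-fold higher level on day 3, and reached 0.420 CPM in WT day 0. Hoxd9 had ratios of 18.7 (6.28 to 91.4) and 18.4 (3.23 to 736). These intervals cover counting error only. All 5 of these genes were called in both genotypes, and in each fit without 1 library in which they were tested. Hoxd9 in KO mice was tested in 6 of 13 such fits. Fitted values of genes with so few counts moved with single day 0 libraries. For Hoxd9 the log2 value was 3.86 in WT mice, 3.04 without d0_WT_46 and 5.08 without d0_WT_31; it was 3.76 in KO mice and 6.16 without d0_KO_54. For Hoxd11 it was 6.601 in WT mice and 9.87 without d0_WT_46, and 7.11 in KO mice and 9.48 without d0_KO_24. Without d0_WT_43, Hoxd10 moved from 3.78 to 4.52 and Hoxd12 from 6.11 to 6.81 in WT mice.

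Of Hoxb6 to Hoxb9, which pattern the thoracic region, Hoxb9 counts toward the posterior share. It was at 27.2, 28.02, 30.4 and 34.1 CPM in WT day 0 and at 57.7 to 74.6 CPM (median 67.5) in WT day 3. KO mice had 28.8, 29.8, 33.3, 35.0 and 35.3 CPM on day 0 and 60.3 to 87.5 CPM (median 70.0) on day 3. The days did not overlap in either genotype, and the log2 fold changes were 1.09 (SE 0.10, adjusted p = 1.35e-06 in edgeR) and 1.02 (SE 0.09, adjusted p = 2.08e-07 in edgeR). Hoxb8 had log2 fold changes of 3.02 (SE 0.29) in WT and 1.83 (SE 0.21) in KO mice, Hoxb7 had 2.02 (SE 0.26) and 0.86 (SE 0.15), and Hoxb6 had 1.67 (SE 0.30) and 0.77 (SE 0.22), all called. Hoxd8 (1.82, SE 0.36) and Hoxb2 (1.40, SE 0.53, adjusted p = 0.0451 in edgeR) were called in WT mice and Hoxa3 (0.53, SE 0.19, adjusted p = 0.0316 in edgeR) in KO mice. Hoxb2 lost its call without any 1 of 9 of the 11 libraries (adjusted p = 0.0536 to 0.160; at 2.28 without d0_WT_41), and Hoxa3 lost its call without d3_KO_349, d3_KO_350, d3_KO_351, d0_KO_53, d0_KO_54 or d0_KO_60 (adjusted p = 0.0550 to 0.0852). Lower on day 3 were Hoxa6 (-1.23, SE 0.32) and Hoxa9 (-0.65, SE 0.23) in WT mice, and Hoxa11 (-1.26, SE 0.31; -0.76 without d0_KO_32) and Hoxa9 (-0.63, SE 0.17) in KO mice.

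Hoxb13 and Hoxa13 did not pass the test on day 3 against day 0. Hoxb13 was at 170, 177, 183 and 207 CPM in WT day 0 and at 42.9, 104, 105, 122 and 144 CPM in KO day 0, within the range of the day 3 libraries except for d0_KO_32. Its log2 fold change was -0.04 (SE 0.28, adjusted p = 0.909 in edgeR) in WT and 0.54 (SE 0.30, adjusted p = 0.152 in edgeR) in KO mice, where it was called without d3_KO_387 (0.66, adjusted p = 0.0426). Hoxa13 was at 35.3, 40.7, 41.7 and 58.4 CPM in WT day 0 and at 26.7, 30.8, 35.3, 40.6 and 61.7 CPM in KO day 0. Its log2 fold change was -0.28 (SE 0.20, adjusted p = 0.266 in edgeR) and -0.20 (SE 0.16, adjusted p = 0.332 in edgeR).

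**Figure D5:**
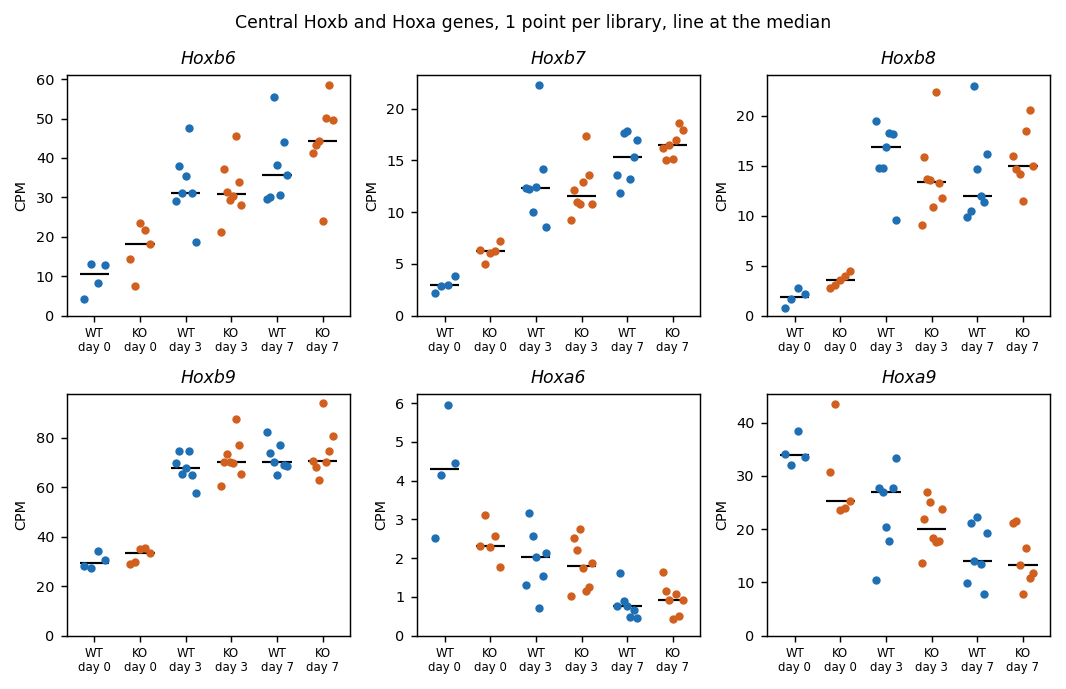
CPM of 6 Hoxb and Hoxa genes, called central in the title, per library in the 6 groups. Axes are linear, with 1 point for each mouse and a line at the group median. Of these genes, Hoxb9 and Hoxa9 count toward the posterior share. Hoxb9 lies at 27.2 to 35.3 CPM in all day 0 libraries and at 57.7 CPM or more in all libraries of days 3 and 7.

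On day 7 against day 0, 16 of 27 tested Hox genes were called in WT mice (10 higher, 6 lower), beside 56.9% of all genes (27.8% higher, 29.2% lower). In KO mice 10 of 23 were called (5 higher, 5 lower), beside 54.6% (27.3% higher, 27.3% lower). Hoxb13 was lower by a log2 fold change of -1.86 (SE 0.44, adjusted p = 0.00307 in edgeR) in WT and -1.996 (SE 0.48, adjusted p = 0.00302 in edgeR) in KO mice, and all WT day 7 libraries lay below all WT day 0 libraries. In KO mice d7 libraries reached 54.7 CPM and d0_KO_32 lay at 42.9 CPM. Hoxa13 was lower by -1.04 (SE 0.26, adjusted p = 0.00389 in edgeR) and -1.21 (SE 0.28, adjusted p = 0.00266 in edgeR). Hoxa6, Hoxa9 and Hoxa5 were lower in both genotypes, with log2 fold changes of -2.48, -1.24 and -0.99 in WT mice and -1.45, -1.11 and -0.82 in KO mice, and Hoxa7 (-0.60, SE 0.13) in WT mice. Hoxa5 lost its KO call without d0_KO_32 (-0.57, adjusted p = 0.0770).

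Hoxd13 was called higher on day 7 than on day 0. Its log2 fold change was 2.18 (SE 0.71, adjusted p = 0.0178 in edgeR) in WT and 2.47 (SE 0.75, adjusted p = 0.0127 in edgeR) in KO mice. The ranges of the days overlapped in both genotypes. They were 0.365 to 3.36 CPM on day 0 and 2.01 to 16.2 CPM on day 7 in WT mice. In KO mice they were 0 to 1.03 CPM and 0.501 to 5.40 CPM. The WT call was lost without d0_WT_41 (1.86, adjusted p = 0.0546), and the value was 2.91 without d0_WT_43 in WT and 3.35 without d0_KO_53 in KO mice. Hoxb6 to Hoxb9 were higher in both genotypes, with log2 fold changes of 1.87, 2.26, 2.84 and 1.197 in WT mice and 1.25, 1.31, 2.03 and 1.09 in KO mice. In WT mice Hoxb3 (1.203, SE 0.32), Hoxb5 (0.96, SE 0.31), Hoxd8 (1.83, SE 0.35), Hoxd9 and Hoxd11 were also called higher, the last with a ratio of 18.8 (95% counting interval 6.32 to 92.1). Hoxd9 lost its call without d0_WT_46 (adjusted p = 0.0911). With the immune score as a covariate 5 Hox genes were called in WT and 2 in KO mice. The number of all genes called with it is not given. Of the genes lower on day 7, the log2 values turned to 1.01 for Hoxb13, 0.47 for Hoxa13 and 0.66 for Hoxa9 in WT mice. In KO mice that of Hoxa5 turned to 0.42. None of these genes was then called.

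The comparison of KO with WT mice asks whether loss of Hk2 in the epithelium went with a difference in Hox expression. No Hox gene was called on any day or over all days by edgeR fitted to the compared groups with its filter on low counts; the exception among other edgeR settings was Hoxb7 on day 0, which was called without the filter (adjusted p = 0.0360) and in the fit of all 38 libraries (adjusted p = 0.0409). On day 0, 0 of 20 tested Hox genes were called, beside 0.0335% of all genes (0.0201% higher, 0.0134% lower), and 7 had an unadjusted p under 0.05, as did 1563 of all 14944 genes tested. On day 3 it was 0 of 28 beside 0.00647%, and the unadjusted p was under 0.05 for 1 Hox gene and for 1218 of all 15461 genes. On day 7 it was 0 of 24 beside 0.00642%, with 3 such Hox genes and 2017 of 15584 genes. Over all days it was 0 of 29 beside 0.0209%, with 6 such Hox genes and 2256 of 19144 genes. DESeq2 called 2 Hox genes on day 0, Hoxb7 and Hoxd8. The share of all genes that DESeq2 called there is not given, so these 2 cannot be set against it. By the same edgeR test Hk2 itself was called on day 0 (log2 fold change -2.20, adjusted p = 0.0331). It was not called on day 3 (-0.27, adjusted p = 0.802), on day 7 (-1.25, adjusted p = 0.291) or over all days (-1.09, adjusted p = 0.122). The absence of called Hox genes therefore does not show that the genotypes were alike. Without d3_KO_345, 0 Hox genes were called on day 3 and over all days.

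Hoxb7 was at 2.23, 2.87, 3.01 and 3.83 CPM in WT day 0 and at 4.98, 6.07, 6.21, 6.31 and 7.25 CPM in KO day 0. The groups did not overlap, and the log2 fold change was 1.06 (SE 0.19, adjusted p = 0.146 in edgeR). Its adjusted p with DESeq2 was 0.000259. Hoxd8 was at 0.352, 0.630, 1.22 and 1.23 CPM in WT day 0 and at 1.22, 1.70, 2.38, 2.88 and 3.72 CPM in KO day 0 (log2 fold change 1.45, SE 0.41, adjusted p = 0.286 in edgeR; DESeq2 adjusted p = 0.0479). Hoxb13 was lower in all KO day 0 libraries than in all WT day 0 libraries. Its log2 fold change was -0.79 (SE 0.25, 95% interval -1.29 to -0.30, adjusted p = 0.345 in edgeR). This value was -0.59 without d0_KO_32, the library lowest in Hoxb13, and -0.94 without d0_KO_24. Hoxa13 had -0.15 (SE 0.22, adjusted p = 0.835 in edgeR), and Hoxd13 was too low for the test. The sum of small intestine markers was 434 to 803 CPM in WT day 0 and 550 to 1112 CPM in KO day 0, highest in d0_KO_60. All 11 of these markers had a mean of 1 CPM or more in KO day 0, and 8 in each of the other 5 groups. In KO day 0 Lct had a mean of 1.06 CPM but a median of 0.665 CPM, with 3.44 CPM in d0_KO_60. Means in WT and KO day 0 were 2.82 and 26.4 CPM for Anpep, 0.725 and 18.4 CPM for Apoa1, 1.61 and 11.7 CPM for Fabp6, and 0.165 and 2.96 CPM for Apoa4. The library d0_KO_60 was highest of its group for each of these genes, and the means without it are not given. Without d0_KO_60 no Hox gene was called either, and the log2 fold changes were 1.00 (SE 0.21) for Hoxb7, 1.38 (SE 0.44) for Hoxd8 and -0.80 (SE 0.28) for Hoxb13. With the markers' score as a covariate no Hox gene was called, and the log2 fold changes were 0.91 (SE 0.23) for Hoxb7 and -0.80 (SE 0.33) for Hoxb13.

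On day 3, Hoxb13 had a log2 fold change of KO over WT of -0.22 (SE 0.28, adjusted p = 0.812 in edgeR), Hoxd13 -0.20 (SE 0.53, adjusted p = 0.919 in edgeR) and Hoxa13 -0.07 (SE 0.15, adjusted p = 0.889 in edgeR). The smallest p were those of Hoxa11 (-0.47, SE 0.22), Hoxd9 (-0.88, SE 0.44) and Hoxa10 (-0.28, SE 0.18). On day 7, Hoxb13 had -0.94 (SE 0.53, adjusted p = 0.441 in edgeR), Hoxd13 -1.44 (SE 0.57, adjusted p = 0.340 in edgeR), Hoxd11 -1.45 (SE 0.65, adjusted p = 0.371 in edgeR), Hoxb2 0.63 (SE 0.25, adjusted p = 0.340 in edgeR) and Hoxa13 -0.31 (SE 0.29, adjusted p = 0.633 in edgeR). The 95% intervals on day 7 were wide: -1.97 to 0.10 for Hoxb13 and -2.56 to -0.32 for Hoxd13. Over all days Hoxb13 had -0.62 (SE 0.25, adjusted p = 0.359 in edgeR), Hoxd13 -0.86 (SE 0.37, adjusted p = 0.377 in edgeR) and Hoxa13 -0.18 (SE 0.14, adjusted p = 0.595 in edgeR), and the smallest p were those of Hoxb2 (0.61, SE 0.21) and Hoxd9 (-0.93, SE 0.33).

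Whether the difference from day 0 depended on genotype was tested as an interaction. For day 3 against day 0, no gene was called by edgeR (0%), with an unadjusted p under 0.05 in 6 of 29 Hox genes and 2492 of all 18458 genes. Hoxb7 (-1.18, SE 0.28, adjusted p = 0.170 in edgeR) and Hoxd8 (-1.79, SE 0.43, adjusted p = 0.170 in edgeR) were called by DESeq2 (adjusted p = 0.0438 and 0.0269), and Hoxb8 had -1.21 (SE 0.34, adjusted p = 0.199 in edgeR). For day 7 against day 0, 0.00531% of all genes and 0 of 26 Hox genes were called, with an unadjusted p under 0.05 in 4 Hox genes and 2544 of all 18830 genes. Hoxb7 had -0.91 (SE 0.19, adjusted p = 0.128 in edgeR; DESeq2 adjusted p = 0.0088), Hoxd8 -1.40 (SE 0.44, adjusted p = 0.202 in edgeR) and Hoxa6 1.07 (SE 0.47, adjusted p = 0.328 in edgeR). Hoxb13, Hoxd13 and Hoxa13 had interactions of 0.56, 1.38 and 0.06 for day 3 and of -0.10, 0.31 and -0.14 for day 7. Both comparisons rest on the day 0 libraries, in which the means of Hoxb7 and Hoxd8 were higher in KO than in WT mice without passing the edgeR test. The shares of all genes that DESeq2 called for these interactions are not given.

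Non-coding genes within the clusters were followed as 14 genes, 9 of them tested. On day 7 against day 3, 4 were called lower in WT mice and 3 in KO mice, and none higher, beside 8.7% of all genes called lower in WT and 8.83% in KO mice. Hottip, a long non-coding RNA transcribed beyond the 5′ end of the Hoxa cluster and known to help keep the 5′ Hoxa genes active, was at 10.8 to 26.02 CPM (median 17.1) in WT day 3 and 0.929 to 9.04 CPM (median 6.73) in WT day 7. In KO mice it was at 10.4 to 22.5 CPM (median 16.9) and 1.37 to 6.18 CPM (median 3.79). Neither genotype's days overlapped, and the log2 fold changes were -1.51 (SE 0.36, adjusted p = 0.00773 in edgeR) and -2.07 (SE 0.28, adjusted p = 0.000106 in edgeR). Hoxa11os, the antisense transcript at Hoxa11, was at 21.8 to 70.6 CPM (median 50.7) in WT day 3 and 7.15 to 36.5 CPM (median 24.1) in WT day 7, with log2 fold changes of -1.18 (SE 0.34, adjusted p = 0.0233 in edgeR) and -1.71 (SE 0.27, adjusted p = 0.000323 in edgeR). Hoxaas2 (-0.69, SE 0.22) and Hoxaas3 (-0.55, SE 0.18) were called in WT mice, and Hotairm1 (-1.36, SE 0.36), at the 3′ end of the Hoxa cluster, in KO mice.

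Coding neighbours of the clusters were a list of 12 genes, of which 11 were matched by name and tested. On day 7 against day 3, 1 was called lower in WT mice, and 1 higher and 2 lower in KO mice, beside 19.3% of all genes called in each genotype. Evx2, a homeobox gene just beyond Hoxd13, was lower on day 7 with log2 fold changes of -2.59 (SE 0.68, adjusted p = 0.0140 in edgeR) in WT and -3.42 (SE 0.65, adjusted p = 0.00133 in edgeR) in KO mice. Its means were 0.140 CPM in WT day 0, 1.08 in WT day 3, 0.177 in WT day 7, and 0.0709, 0.871 and 0.0775 CPM in KO mice on the same days. Skap1, beyond the Hoxb cluster, rose in KO mice (0.98, SE 0.24, adjusted p = 0.00715 in edgeR), and Lnp, beyond Evx2, fell (-0.43, SE 0.08, adjusted p = 0.00184 in edgeR).

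Regulators of gut region were a list of 16 genes, 15 tested. On day 7 against day 3, 1 was called higher and 1 lower in WT mice, and 2 higher and 1 lower in KO mice, beside the same 19.3% of all genes. Isx, an intestine-specific homeobox gene that restrains vitamin A uptake, was higher (0.75, SE 0.17, adjusted p = 0.00562 in edgeR in WT; 0.93, SE 0.15, adjusted p = 0.000333 in edgeR in KO). Foxa2, a pioneer factor of endoderm, was lower (-1.15, SE 0.23, adjusted p = 0.00242 in edgeR; -1.12, SE 0.26, adjusted p = 0.00528 in edgeR), and Gata4, a factor of the proximal small intestine, was higher in KO mice (1.42, SE 0.27, adjusted p = 0.00128 in edgeR) at means of 0.400 and 1.08 CPM. Cdx2, the caudal factor of intestinal identity, was not called, with means of 217 and 269 CPM in WT day 3 and day 7.

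Hox proteins bind DNA with the cofactors of the Pbx and Meis families, and Polycomb and Trithorax proteins keep Hox genes silent or active. Of 9 cofactor genes, 6 were tested and none was called on day 7 against day 3 in either genotype. Of 19 Polycomb and Trithorax genes, 1 was called higher and 2 lower in WT mice, and 1 higher in KO mice. For both lists the share of all genes called was 19.3%. Bmi1, a Polycomb subunit, was higher in both (0.59, SE 0.09, adjusted p = 0.000559 in edgeR; 0.35, SE 0.09, adjusted p = 0.0108 in edgeR), and Cbx2 (-0.85, SE 0.22, adjusted p = 0.0127 in edgeR) and Men1 (-0.47, SE 0.11, adjusted p = 0.00807 in edgeR) were lower in WT mice. No gene of these 5 lists was called between KO and WT mice on any day or over all days.

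On day 3 against day 0 the name prefix of the libraries also differed, and age and sex may have. There 46% of all genes were called in WT and 46.3% in KO mice. Beside these, 2 cofactors were called higher in each genotype and none lower, led by Pbx2 (0.54, SE 0.10 in WT; 0.36, SE 0.09 in KO). Of the gut regulators 5 were called higher and 1 lower in WT mice, and 4 higher and 2 lower in KO mice, with Foxa1 at 1.25 (SE 0.10) and 1.28 (SE 0.08) and the retinoic acid receptor gene Rarb at -1.61 (SE 0.32) and -1.72 (SE 0.25). Of the Polycomb and Trithorax genes 9 were called higher and 1 lower in each genotype, led by the Polycomb gene Pcgf2 (1.19, SE 0.14; 1.21, SE 0.12) and, in KO mice, the histone demethylase gene Kdm6b (1.16, SE 0.15). Evx2 was higher with the 5′ Hoxd genes (2.80, SE 0.90, adjusted p = 0.0214 in edgeR; 3.33, SE 0.81, adjusted p = 0.00359 in edgeR).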

How the data were processed

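Total RNA of isolated intestinal epithelial cells was sequenced by the authors after stranded mRNA library preparation, per the labels' protocols. Trim Galore, STAR and featureCounts 1.5.2 are named with GRCm38 in the submitters' processing notes. The deposited values are whole-number counts per gene and lane, made with featureCounts 1.6.2 without strand, per the file headers. The 2 lanes of each library were summed (correlation at least 0.989). Groups follow genotype and day in the labels.

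Compared groups were fitted alone with edgeR 4.0.16 in R 4.3.3 (quasi-likelihood test, TMM scaling, filterByExpr). A gene was called where its p, adjusted by Benjamini-Hochberg over all genes tested, was under 0.05. CPM are TMM-scaled over all 38 libraries, RPKM are CPM per kilobase of the deposited gene length, and SE were derived from each fold change and F statistic. The procedure was also run on simulated counts with known changes, and no result above rests on that run. The genes of group 13 were named in every comparison, with up to 12 called Hox genes of largest change, or up to 3 of smallest p where none was called, and up to 4 called genes of each list. The gene lists and the set were chosen with earlier results of these data known. Alternatives were DESeq2 1.42.0 size factors and Wald test, other filters, a fit of all libraries, marker scores as covariates and omission of each library.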

Additional observations from a re-analysis of the deposited data

Results flagged for a closer look

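Values that lay far from the rest of their group were sought by Dixon's criterion at the 95% level over 119 combinations of group and measure, and 10 were found; chance flags about 1 in 20 groups. The KO day 3 library d3_KO_387 had 4 of them. Its posterior share was 55.57%, where the other 7 libraries had 68.2 to 77.6%. Hoxa13 was at 26.7 CPM there and 36.6 to 42.5 CPM in the others, Hoxd8 at 4.48 CPM against 2.12 to 2.91 CPM, and Hoxb2 at 0.98 CPM against 0.227 to 0.575 CPM.

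The other 6 concerned 6 libraries. Hoxb7 was at 22.3 CPM in d3_WT_381 (others 8.57 to 14.2 CPM). Hoxa11 was at 5.87 CPM in d0_KO_32 (others 1.76 to 2.19 CPM) and at 3.929 CPM in d7_KO_366 (others 1.64 to 2.61 CPM). Hoxa6 was at 1.611 CPM in d7_WT_361 (others 0.455 to 0.888 CPM), Hoxb2 at 0.6842 CPM in d7_WT_370 (others 0.182 to 0.370 CPM) and Hoxd12 at 0.1579 CPM in d7_KO_421 (others 0 to 0.0411 CPM).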

How the results depend on the processing

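No paired analysis was possible because the replicate numbers in the labels are animal numbers that no 2 groups share. On day 7 against day 3 the number of Hox genes called stayed at 8 to 9 in WT and 10 to 12 in KO mice under the other scalings, tests, filters, the fit of all libraries and the stromal covariate. The immune covariate was chosen after the data were seen, and the immune score moves with the day. With it 0 Hox genes were called in WT and KO mice on day 7 against day 3, and 5 and 2 on day 7 against day 0; with the small intestine covariate 0 were called in WT mice on day 7 against day 3. The cause was not tested. Between KO and WT mice on day 0, DESeq2 called 2 Hox genes, and edgeR without a filter or with all libraries 1 each. DESeq2 called 2 interactions for day 3 and 1 for day 7 against day 0. Except where stated above, the shares of all genes called under these other settings are not given. With groups 10 to 13 alone the posterior share was 68.2, 57.1 and 32.1% in WT and 55.2, 55.0 and 22.5% in KO mice on days 0, 3 and 7.

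Log2 fold changes that turned with the immune covariate were, on day 7 against day 3 in WT mice, Hoxb13 1.21, Hoxd13 1.08, Hoxd12 4.83, Hoxd10 0.53, Hoxa5 0.45 and Hoxa13 0.98, and in KO mice Hoxa3 0.46, Hoxa5 0.31 and Hoxa6 0.55. On day 7 against day 0 they were Hoxb13 1.01, Hoxa9 0.66 and Hoxa13 0.47 in WT and Hoxa5 0.42 in KO mice. Small values also turned: Hoxd13 0.12 for KO against WT on day 3, Hoxb13 0.0317 (0.0202 without a filter) on day 3 against day 0 in WT mice, and the interactions of Hoxb13 (0.0757) and Hoxa13 (0.0451) for day 7 against day 0. With the small intestine covariate the interactions were -0.0683 for Hoxa13 (day 3 against day 0), 0.0444 for Hoxb13 and -0.11 for Hoxd13 (day 7 against day 0).

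Leaving out each library in turn gave 7 to 11 Hox genes called in WT and 10 to 13 in KO mice on day 7 against day 3, 11 to 15 and 10 to 13 on day 3 against day 0, and 14 to 18 and 9 to 13 on day 7 against day 0. For the interaction of day 7 against day 0 it gave 0 to 1 (Hoxb7 without d7_KO_420, adjusted p = 0.0347 in edgeR). The shares of all genes called in these fits are not given.

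Sign changes on leaving out 1 library were confined, among the Hox genes named, to values that had not passed the test. Their ranges were -0.35 to 0.0185 (KO against WT on day 0) and -0.16 to 0.0346 (day 3) for Hoxa13, -0.45 to 0.0151 for Hoxd13 (KO against WT on day 3), -0.23 to 0.11 for Hoxb13 (day 3 against day 0 in WT mice) and -0.31 to 0.0632 for Hoxa13 (the same in KO mice). The interaction ranges were -0.10 to 0.31 for Hoxa13 (day 3 against day 0), and -0.37 to 0.14 for Hoxb13, -0.42 to 1.16 for Hoxd13 and -0.30 to 0.0454 for Hoxa13 (day 7 against day 0). The depth of the day 0 libraries limits what can be said of Hoxd9 to Hoxd12, which had 0 to 14 counts over a day 0 group.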
